A study of Mus musculus with 14 samples.

Results

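The genes described here are 5 markers of CA1 pyramidal cells of the hippocampus, Wfs1, Fibcd1, Pou3f1, Mpped1 and Man1a. They were taken by gene name from the count tables of both experiments of the study, and all 5 were among the 24912 genes listed in both tables. The study sequenced poly-A RNA from the dorsal hippocampus of 14 male C57BL6 mice aged 8 months, with 1 library per mouse. In the basal experiment, 3 WT mice were set against 2 THY-Tau22 mice, without training and with no injection given in the labels. THY-Tau22 mice are heterozygous for a mutated human Tau transgene whose Thy1.2 promoter is active in neurons, and they are a model of tauopathy.

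In the learning experiment all mice were injected. The WT VEH_HC mice (n = 3) received saline and stayed in the home cage, and the WT VEH mice (n = 2) received saline and learned the place of a hidden platform in a water maze. The TAU VEH mice (n = 2) were trained THY-Tau22 mice given carbon nanospheres (CSP), and the TAU MOL mice (n = 2) were trained THY-Tau22 mice given CSP-TTK21, in which the spheres carry TTK21, an activator of the acetyltransferases CBP and p300. Genotype and injected vehicle therefore cannot be told apart between WT VEH and TAU VEH. The authors left out 3 further mice of this experiment, all of 1 litter, after their data had been seen, and these were not analysed here.

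CA1 is the field of the hippocampus whose pyramidal cells receive input from CA3 and send the main output of the hippocampus to the subiculum and cortex, and it is needed for spatial memory. It is also a site of marked Tau pathology in THY-Tau22 mice. Wfs1 encodes wolframin, a membrane protein of the endoplasmic reticulum involved in calcium balance and the response to unfolded proteins. Fibcd1 encodes a transmembrane receptor with a fibrinogen-like domain that binds acetylated sugars, and Man1a a mannosidase of the Golgi that trims N-linked glycans. Pou3f1 encodes a transcription factor of the POU family, which binds octamer motifs, and Mpped1 a protein with a metallophosphoesterase domain.

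In mm9, the build the reads were aligned to, Wfs1 (ENSMUSG00000039474) lies on the reverse strand at chr5:37357343-37380221 and Fibcd1 (ENSMUSG00000026841) on the reverse strand at chr2:31668810-31701525. Mpped1 (ENSMUSG00000041708) lies on the forward strand at chr15:83609897-83688924 and Man1a (ENSMUSG00000003746) on the reverse strand at chr10:53624594-53795602. All 4 are protein-coding genes whose exon bases were shared with no other annotated gene. Pou3f1 (ENSMUSG00000078236) has a single exon of 3004 bases on the forward strand at chr4:124334896-124337899. An annotated pseudogene model of the same name (ENSMUSG00000090125, from 124334889 to 124337899) covers all of that exon but 1 base in the annotation used here. Counts for Pou3f1 were only 23 to 81 per library, against 1195 or more for each other gene, and are uncertain for both reasons.

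Promoter sequences were at hand for 4 of the 5 genes (RefSeq, GRCm38.p6), and not for Pou3f1. The 250 bases before the start are shown 5′ to 3′ on the gene's strand for the 3 genes that were lower in trained THY-Tau22 mice and for Man1a, which was not called in any comparison. Capitals mark the GC box, GGGCGG on either strand. Wfs1 is shown at chr5:36988983-36989232 (reverse strand), Fibcd1 at chr2:31846006-31846255 (reverse strand), the first of 2 Mpped1 starts at chr15:83779773-83780022 (forward strand) and Man1a at chr10:54075738-54075987 (reverse strand).
Wfs1: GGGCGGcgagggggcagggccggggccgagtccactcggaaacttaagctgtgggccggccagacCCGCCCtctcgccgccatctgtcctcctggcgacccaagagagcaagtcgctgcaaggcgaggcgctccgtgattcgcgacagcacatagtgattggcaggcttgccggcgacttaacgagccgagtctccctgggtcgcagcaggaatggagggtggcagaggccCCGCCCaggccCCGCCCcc
Fibcd1: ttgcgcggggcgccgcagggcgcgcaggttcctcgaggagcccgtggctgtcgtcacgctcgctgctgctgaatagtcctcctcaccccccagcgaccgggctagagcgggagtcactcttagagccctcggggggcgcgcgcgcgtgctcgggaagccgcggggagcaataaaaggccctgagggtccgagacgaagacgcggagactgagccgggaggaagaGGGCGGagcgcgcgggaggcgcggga
Mpped1: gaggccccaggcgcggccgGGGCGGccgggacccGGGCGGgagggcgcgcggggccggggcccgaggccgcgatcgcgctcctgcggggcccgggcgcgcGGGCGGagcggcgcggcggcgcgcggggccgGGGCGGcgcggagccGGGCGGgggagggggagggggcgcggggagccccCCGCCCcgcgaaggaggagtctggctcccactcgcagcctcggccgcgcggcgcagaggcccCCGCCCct
Man1a: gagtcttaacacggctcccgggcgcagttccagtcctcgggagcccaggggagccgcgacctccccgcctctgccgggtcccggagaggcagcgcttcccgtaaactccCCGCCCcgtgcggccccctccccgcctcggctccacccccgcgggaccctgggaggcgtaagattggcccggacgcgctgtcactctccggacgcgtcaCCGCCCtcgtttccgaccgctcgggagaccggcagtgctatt
The window held 7 GC boxes for Mpped1, 4 for Wfs1, 2 for Man1a and 1 for Fibcd1, and 32.7% of all 32851 promoters held at least 1. Its GC content was 88.8% for Mpped1, 72.4% for Man1a, 71.6% for Fibcd1 and 69.6% for Wfs1, against a median of 52.4% over all promoters. The second Mpped1 start (chr15:83784579-83784828) had a GC content of 46.8% and no GC box. The octamer ATGCAAAT, present on either strand in 1.6% of promoters, and the cAMP response element TGACGTCA, present in 1.55%, occurred in none of these 5 windows. These matches describe the letters of the windows, and binding was not tested.

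Total counts ran from 28639121 to 37681155 per library in the basal and from 24693713 to 52180305 in the learning experiment. Thy1, whose promoter drives the transgene, was listed at 795 to 874 CPM (counts relative to library size, scaled by the TMM method within each experiment) in basal WT and at 1840 to 2350 CPM in THY-Tau22, and at 786 to 913 CPM in the WT and 1800 to 2110 CPM in the THY-Tau22 libraries of the learning experiment. Marker lists of the other hippocampal fields were detected in every library, with summed levels of 198 to 353 CPM for CA3, 209 to 322 CPM for CA2 and 348 to 585 CPM for dentate granule cells. Libraries differed in how their values moved with the GC content of genes. The rank correlation of a gene's deviation from its mean with its GC content was 0.0712 to 0.339 in basal WT, and 0.506 and -0.625 in the basal THY-Tau22 replicates 1 and 2, which thus stood at opposite ends. In the learning experiment it was 0.093 and 0.293 in WT VEH, 0.444 to 0.483 in WT VEH_HC. The TAU VEH libraries had -0.657 and -0.445, and the TAU MOL libraries -0.424 and -0.502. Wfs1, Fibcd1, Pou3f1 and Mpped1 have exons of 55.9% to 61.5% GC, above at least 81.2% of all genes tested, and Man1a has 43.3% GC. Values corrected in each library for the GC content and length of genes are therefore given beside the results.

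**Figure D1:**
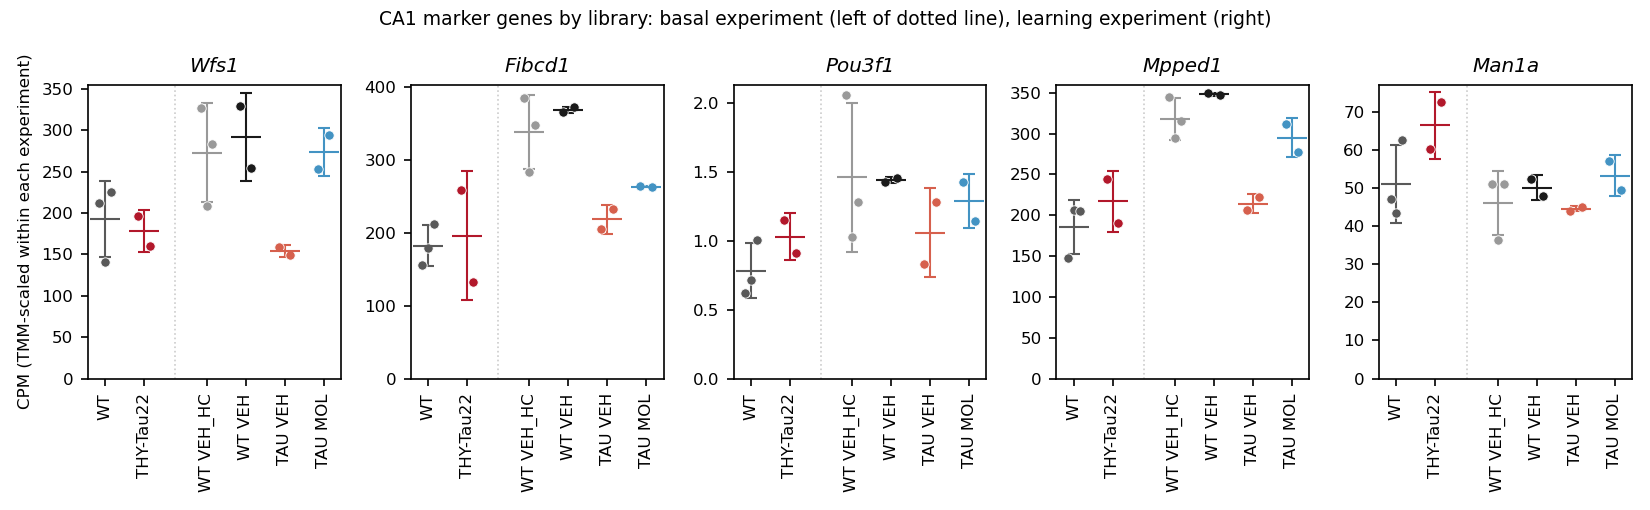
Level of each gene in CPM on a linear axis in each library of the 6 groups, with the basal experiment to the left and the learning experiment to the right of the dotted line. Points are libraries and bars are mean ± SD. For all 5 genes both TAU VEH libraries lie below both WT VEH libraries, and the libraries of these groups did not overlap for 57.9% of all genes. Basal WT and THY-Tau22 libraries overlap for all 5 genes, and did not overlap for 18.5% of all genes.

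In basal conditions, 0 of the 5 CA1 genes differed between THY-Tau22 and WT mice, and the libraries of the groups overlapped for all 5. Wfs1 was measured at 212, 141 and 226 CPM in the WT libraries and at 196 and 160 CPM in the THY-Tau22 libraries, which lay within the WT range. Fibcd1 was at 156, 178 and 212 CPM in WT and at 258 and 133 CPM in THY-Tau22. The THY-Tau22 libraries of this gene were the highest and the lowest of the 5. Mpped1 was at 148, 206 and 205 CPM in WT and at 244 and 191 CPM in THY-Tau22. Man1a was at 47.0, 43.4 and 62.7 CPM in WT and at 60.1 and 72.6 CPM in THY-Tau22. Pou3f1 was at 0.621, 0.718 and 1.01 CPM in WT and at 1.15 and 0.909 CPM in THY-Tau22. For Mpped1, Man1a and Pou3f1 the highest library was a THY-Tau22 library and the lowest a WT library.

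The log2 fold changes of THY-Tau22 over WT were -0.11 (SE 0.19) for Wfs1, 0.10 (SE 0.24) for Fibcd1, 0.22 (SE 0.17) for Mpped1, 0.38 (SE 0.16) for Man1a and 0.40 (SE 0.32) for Pou3f1. Adjusted p-values were 0.901 to 0.964 in edgeR's quasi-likelihood test. Man1a was the 1 gene of the 5 with an unadjusted p under 0.05 (0.0438), and DESeq2 called none of them. A call needed a log2 fold change beyond 0.2 in either direction with an adjusted p under 0.05, and across all genes only 4 of 16324 were called (0.0245%), with 803 at an unadjusted p under 0.05 and 41 called by DESeq2. Non-overlapping libraries were seen in 18.5% of all genes. Over the 5 genes the median log2 fold change was 0.22, and that of all genes -0.0072. Wfs1 turned to 0.02 without THY-Tau22 replicate 2, and Fibcd1 ranged from -0.43 without THY-Tau22 replicate 1 to 0.51 without THY-Tau22 replicate 2. With the GC and length correction, Wfs1 had -0.0545, Fibcd1 0.0916, Mpped1 0.245, Man1a 0.266 (unadjusted p = 0.0548 in edgeR) and Pou3f1 0.477, and none was called.

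The comparison of WT VEH with WT VEH_HC asked how spatial training changed the levels in WT mice, and none of the 5 genes was called by edgeR in it, as against 8.4% of all genes. Wfs1 was at 330 and 254 CPM in WT VEH and at 327, 209 and 283 CPM in WT VEH_HC. Fibcd1 was at 365 and 371 CPM after training and at 384, 284 and 348 CPM in the home cage. The trained libraries of both genes lay within the home cage range or, for Wfs1 replicate 1, just above it. Mpped1 was at 350 and 347 CPM in WT VEH and at 345, 294 and 315 CPM in WT VEH_HC, and was the 1 gene whose libraries did not overlap, as was the case for 43.8% of all genes. Man1a was at 52.4 and 47.8 CPM in WT VEH and at 51.0, 36.3 and 51.0 CPM in WT VEH_HC. Pou3f1 was at 1.43 and 1.46 CPM in WT VEH and at 2.06, 1.03 and 1.28 CPM in WT VEH_HC. WT VEH_HC replicate 2 was the lowest of its group for all 5 genes. The log2 fold changes were 0.00 to 0.13 with standard errors of 0.078 to 0.28, and edgeR's adjusted p-values were 0.298 to 0.999. The unadjusted p was under 0.05 for 0 of the 5 genes, and DESeq2 called 0. With the GC and length correction the log2 fold changes were 0.0801 to 0.215 and none was called. That of Mpped1 went from 0.13 to 0.215 (unadjusted p = 0.0241, adjusted p = 0.149 in edgeR). Of the genes called across the table, 36.3% were lower, and 25.4% with library size alone as the scale.

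In trained mice, TAU VEH had lower levels of Wfs1, Fibcd1 and Mpped1 than WT VEH, by 1.89-fold, 1.69-fold and 1.63-fold. Man1a and Pou3f1 did not pass the test. Wfs1 was at 159 and 149 CPM in TAU VEH, against 330 and 254 CPM in WT VEH. Fibcd1 was at 204 and 232 CPM in TAU VEH, against 365 and 371 CPM. Mpped1 was at 206 and 222 CPM in TAU VEH, against 350 and 347 CPM. For each of these 3 genes the TAU VEH libraries were also below every WT VEH_HC library. Those groups differ in genotype, vehicle and training, and the share of all genes for which this holds was not computed. Man1a was at 44.0 and 45.1 CPM in TAU VEH against 52.4 and 47.8 CPM, and Pou3f1 at 0.829 and 1.28 CPM against 1.43 and 1.46 CPM. Here too both TAU VEH libraries were the lower ones, but the Pou3f1 values rest on 34 to 59 counts per library. In bulk tissue, fewer CA1 pyramidal cells and less RNA of these genes per cell cannot be told apart.

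The log2 fold change of TAU VEH over WT VEH was -0.92 for Wfs1 (SE 0.18, adjusted p = 0.00497 in edgeR's quasi-likelihood test). It was -0.76 for Fibcd1 (SE 0.12, adjusted p = 0.00177 in edgeR) and -0.70 for Mpped1 (SE 0.086, adjusted p = 0.00101 in edgeR). Pou3f1 had -0.49 (SE 0.34, adjusted p = 0.406 in edgeR) and Man1a -0.17 (SE 0.14, adjusted p = 0.505 in edgeR). Thus 3 of 5 genes were called, all lower, in a comparison where 14.4% of all 16820 genes tested were called and 10.8% were called lower. The libraries did not overlap for all 5 genes, as for 57.9% of all genes. Over the 5 genes the median log2 fold change was -0.70, and that of all genes 0.0041. Of the genes called, 74.9% were lower. With library size alone as the scale the median of all genes moved up by 0.15 and this share was 28.3%, while Wfs1, Fibcd1 and Mpped1 were still called lower, at -0.77, -0.61 and -0.55.

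Genes of a high GC content were lower on average in TAU VEH. The median log2 fold change was -0.24 over the 3582 genes of 55% to 62% GC and 0.15 over the 3089 genes of 40% to 45% GC. Wfs1, Fibcd1 and Mpped1 lay further below 0 than the median of their GC range, and Man1a lay below the median of its own. After the correction for GC content and length, 1 of the 5 genes was called, Mpped1, at -0.49 (SE 0.0918, adjusted p = 0.0189 in edgeR), with 2.64% of all genes called. Wfs1 then had -0.67 (adjusted p = 0.0857), Fibcd1 -0.39 (adjusted p = 0.157), Man1a -0.35 (adjusted p = 0.241) and Pou3f1 -0.12 (adjusted p = 0.92), all in edgeR. Leaving out WT VEH replicate 1 gave -0.71 for Wfs1 (adjusted p = 0.0647 in edgeR), and with any 1 of the other 3 libraries of these groups left out all 3 genes remained called. These fits have 1 library in a group, which is assumed to vary like the other groups.

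**Figure D2:**
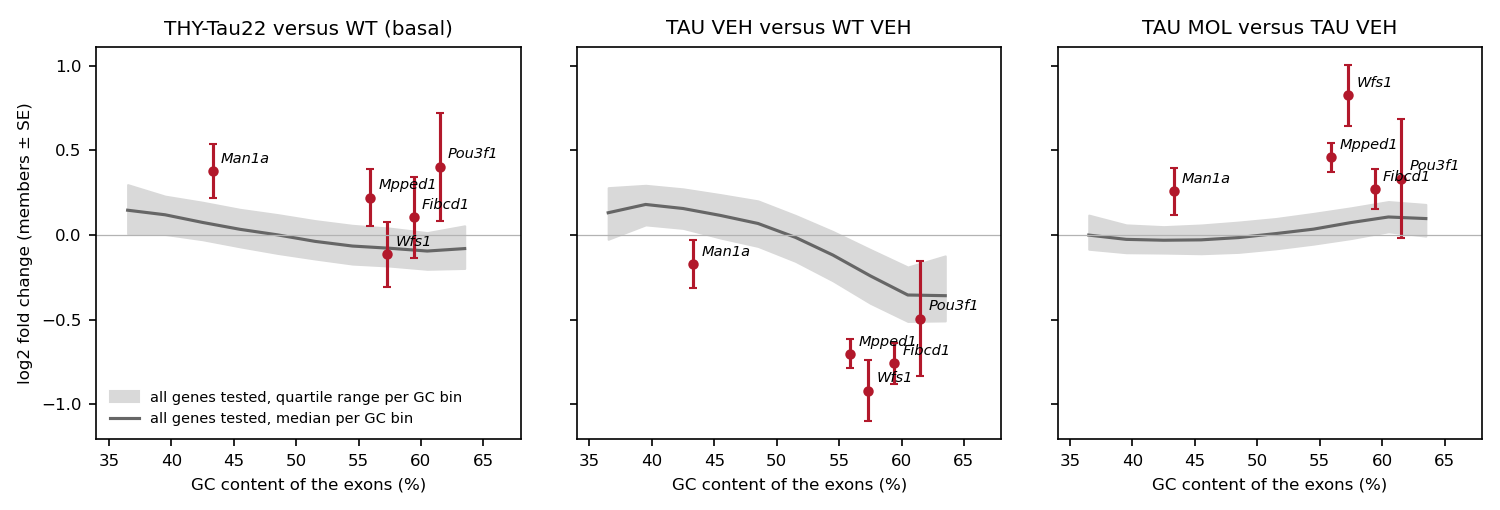
Log2 fold change against the GC content of the exons, in percent, in 3 comparisons. The line is the median and the band the range between the quartiles of all genes tested in bins of 3 percentage points, and points are the CA1 genes ± SE. In TAU VEH versus WT VEH the median falls from 0.18 at 38% to 41% GC to -0.35 at 59% to 62% GC, and Wfs1, Fibcd1, Mpped1 and Man1a lie below the band.

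CSP-TTK21 was given to test whether activating CBP and p300 changes gene expression in THY-Tau22 mice, and in TAU MOL versus TAU VEH 0 of the 5 genes were called. Wfs1 was at 253 and 294 CPM in TAU MOL, against 159 and 149 CPM in TAU VEH. Mpped1 was at 312 and 277 CPM, against 206 and 222 CPM. For both genes the TAU MOL libraries lay above those of TAU VEH and within or near the range of the WT VEH_HC libraries. Fibcd1 was at 264 and 263 CPM against 204 and 232 CPM, and Man1a at 57.1 and 49.4 CPM against 44.0 and 45.1 CPM. Pou3f1 was at 1.42 and 1.15 CPM against 0.829 and 1.28 CPM, and was the 1 gene whose libraries overlapped. Libraries that did not overlap, seen for the other 4 genes, occurred in 38.9% of all genes.

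The log2 fold changes of TAU MOL over TAU VEH were 0.83 for Wfs1 (SE 0.18, unadjusted p = 0.000566, adjusted p = 0.254 in edgeR) and 0.46 for Mpped1 (SE 0.086, unadjusted p = 0.0002, adjusted p = 0.213 in edgeR). They were 0.27 for Fibcd1, 0.33 for Pou3f1 and 0.26 for Man1a, with adjusted p-values of 0.758 to 0.963 in edgeR. The unadjusted p was under 0.05 for 3 of the 5, Fibcd1 included. With the GC and length correction this held for Wfs1 (0.74) and Mpped1 (0.381) and was lost for Fibcd1, at 0.151 (unadjusted p = 0.278 in edgeR), while Man1a had 0.282 and Pou3f1 0.205, and none was called. By unadjusted p, Mpped1 ranked 12 and Wfs1 32 among all genes. No gene of the whole table was called (0.0%), although 1064 had an unadjusted p under 0.05, and DESeq2 called 54 genes. Mpped1 was among the latter, with an adjusted p of 0.00053 in DESeq2. Over the alternatives tried, its adjusted p in edgeR or DESeq2 ran from 1.2e-05 to 1.0, and that of Wfs1 from 6.08e-20 to 1.0, with both called when no filter on low counts was used and when only these 2 groups were fitted. The median over the 5 genes is the 0.33 of Pou3f1, which ran from 0.00899 to 0.635 with a library left out, and the median of all genes was 0.0089.

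Set against trained WT mice, the treated THY-Tau22 mice differed in 1 of the 5 genes. Fibcd1 was lower in TAU MOL than in WT VEH by 1.40-fold (log2 fold change -0.485, SE 0.11, adjusted p = 0.033 in edgeR), where 5.63% of all genes were called and 5.02% called lower. This call was lost after the GC correction (log2 fold change -0.236, adjusted p = 0.535 in edgeR), with library size alone as the scale (-0.364, adjusted p = 0.0854 in edgeR) and with any 1 of the 4 libraries left out, where the log2 fold change stayed at -0.473 to -0.487 (adjusted p = 0.133 to 0.192 in edgeR). Of the genes called, 89.1% were lower, and 30.1% with library size alone, which moved the median of all genes up by 0.12. Mpped1 had -0.24 (SE 0.086, adjusted p = 0.133 in edgeR), with both TAU MOL libraries below both WT VEH libraries. Wfs1 had -0.09 (SE 0.17), Pou3f1 -0.16 (SE 0.33) and Man1a 0.09 (SE 0.14), with adjusted p-values of 0.802 to 0.849 in edgeR. With the GC correction Mpped1 had -0.111, Wfs1 0.0683, Pou3f1 0.0898 and Man1a -0.069, the last 3 of these with the sign turned. Libraries did not overlap for 3 of the 5 genes, Fibcd1, Mpped1 and Pou3f1, and for 52.5% of all genes. This comparison and the 2 before it share libraries, so that their values are not independent.

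The order of the 4 learning groups differed between the genes. For Wfs1, mean levels were 292 ± 53.2 CPM (SD, n = 2) in WT VEH, 274 ± 29.3 CPM (n = 2) in TAU MOL and 273 ± 59.7 CPM (n = 3) in WT VEH_HC, whose libraries overlapped, and 154 ± 6.99 CPM (n = 2) in TAU VEH. For Fibcd1 they were 368 ± 4.40 CPM in WT VEH and 338 ± 50.8 CPM in WT VEH_HC, which overlapped, then 263 ± 0.453 CPM in TAU MOL and 218 ± 19.4 CPM in TAU VEH, which did not overlap with their neighbours. Mpped1 was at 348 ± 2.03 CPM in WT VEH, 318 ± 25.5 CPM in WT VEH_HC, 295 ± 24.2 CPM in TAU MOL and 214 ± 11.5 CPM in TAU VEH. Its WT VEH_HC and TAU MOL libraries overlapped. Man1a was highest in TAU MOL, at 53.2 ± 5.44 CPM, and lowest in TAU VEH, at 44.6 ± 0.772 CPM, and the libraries of neighbouring groups overlapped. Pou3f1 ran from 1.46 ± 0.538 CPM in WT VEH_HC to 1.06 ± 0.321 CPM in TAU VEH, and of neighbouring groups all but WT VEH and TAU MOL overlapped.

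The change from WT to THY-Tau22 was then set side by side in the 2 experiments. It was -0.11 in the basal and -0.92 in the learning experiment for Wfs1, 0.10 and -0.76 for Fibcd1, 0.22 and -0.70 for Mpped1, 0.38 and -0.17 for Man1a, and 0.40 and -0.49 for Pou3f1. The signs thus differed for 4 of the 5 genes. A fit over all 14 libraries tested the difference between these changes itself. The learning minus basal difference was -0.89 for Mpped1 (SE 0.21, unadjusted p = 0.000606, adjusted p = 0.15 in edgeR). It was -0.78 for Wfs1 (SE 0.29), -0.84 for Fibcd1 (SE 0.31), -0.87 for Pou3f1 (SE 0.48) and -0.52 for Man1a (SE 0.23), with adjusted p-values of 0.521 to 0.699 in edgeR. The unadjusted p was under 0.05 for 4 of the 5 genes, and for 1325 of all 17026 genes tested. So 0 of 5 genes passed the test of the difference, for which 0.129% of all genes were called, and a different direction in the 2 experiments was not shown.

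DESeq2 called Mpped1 in this test (adjusted p = 0.00481), and so did edgeR without the filter on low counts (adjusted p = 0.0186). Without THY-Tau22 replicate 2, the basal library with the rank correlation of -0.625 with GC content, Fibcd1 had -1.26 (adjusted p = 0.0122) and Mpped1 -1.08 (adjusted p = 0.0147), both called in edgeR, as were 764 genes in place of 22. Without THY-Tau22 replicate 1, Fibcd1 had -0.246 (adjusted p = 0.787 in edgeR) and Mpped1 -0.678 (adjusted p = 0.432 in edgeR). Each of these fits has 1 basal THY-Tau22 library, which is assumed to vary like the other groups. The median of the 5 differences was -0.84, against 0.04 for all genes. The 2 experiments were set side by side because earlier results had shown the direction of these genes to differ, so the sign of the differences is no independent evidence. After the GC and length correction they were -0.61 for Wfs1, -0.47 for Fibcd1, -0.73 for Mpped1, -0.61 for Man1a and -0.58 for Pou3f1, and none was called in edgeR, with an unadjusted p under 0.05 for Mpped1 (0.00181), Man1a (0.0106) and Wfs1 (0.0459). Training and mouse cohort differ between the experiments and cannot be told apart in this test, and the labels give no injection for the basal mice.

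**Figure D3:**
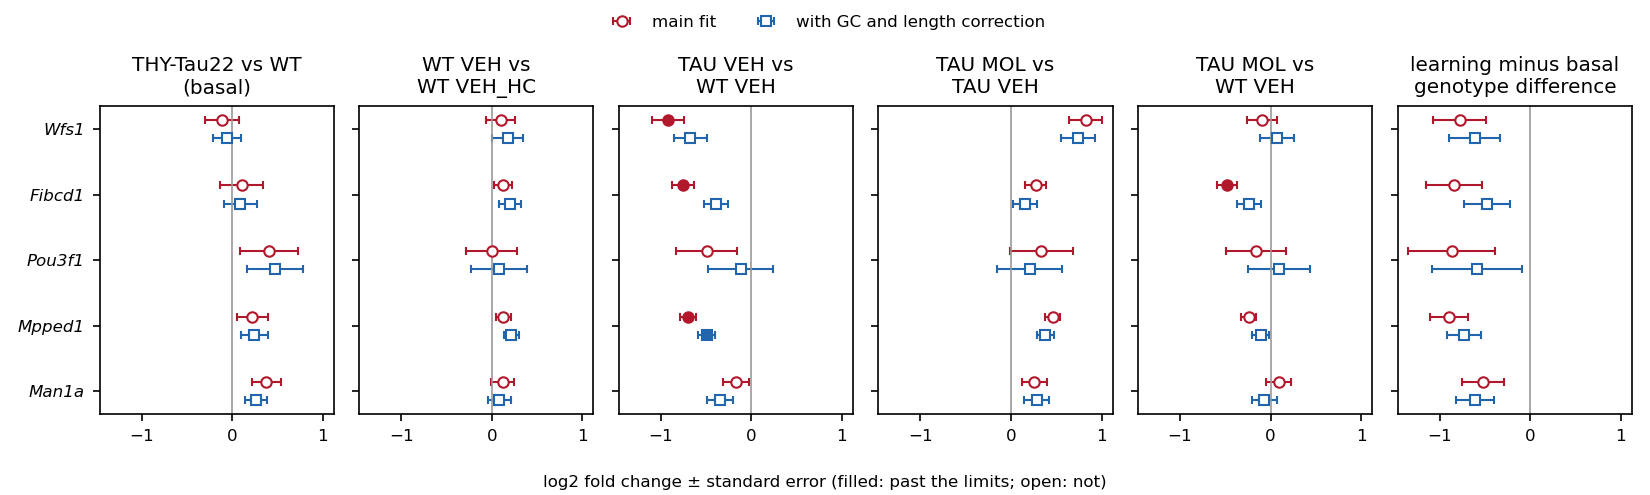
Log2 fold change ± SE of the 5 genes in the 5 comparisons and, in the last panel, the difference between the changes from WT to THY-Tau22 in the learning and the basal experiment. Circles are the TMM-scaled fit and squares the fit corrected for GC content and gene length, and filled symbols passed the limits for a call. Wfs1, Fibcd1 and Mpped1 are filled in TAU VEH versus WT VEH without the correction, and Mpped1 alone with it.

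The levels were also put on a common scale over the 14 libraries. Fibcd1 was at 147 to 198 CPM in basal WT and at 290 to 390 CPM in WT VEH_HC, and Mpped1 at 140 to 198 CPM and 302 to 350 CPM. Wfs1 was at 135 to 211 CPM in basal WT and at 214 to 332 CPM in WT VEH_HC. Pou3f1, with its few counts, was at 0.588 to 0.938 CPM and 1.05 to 2.09 CPM. The TAU VEH libraries, at 214 to 242 CPM for Fibcd1, 216 to 232 CPM for Mpped1 and 156 to 167 CPM for Wfs1, thus lay nearer to basal WT than to the WT mice of their own experiment. Man1a was at 41.5 to 58.5 CPM in basal WT and at 37.2 to 52.7 CPM in WT VEH_HC. The glutamatergic list, scaled within each experiment, summed to 11600 to 13000 CPM in basal WT and 18000 to 21000 CPM in WT VEH_HC. These levels are a description, since the experiments were sequenced as separate sets of mice and no test separates the cohort from the conditions.

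Other gene lists were read in the same way, and the share of each list is to be read against the 14.4% of all genes called in TAU VEH versus WT VEH. Of 5 other CA1-enriched genes, 2 were lower there, among them Nov, a matricellular signalling protein (log2 fold change -0.67). The median of this list was -0.62, and -0.47 after the GC and length correction. The -0.62 is the value of an uncalled gene with as few as 9 counts in a library. Calb1, a calcium-binding protein, had 0.16. Of 7 genes of glutamatergic neurons, 4 were lower, among them Slc17a7, the vesicular glutamate transporter VGLUT1 (-0.63), and Camk2a, a kinase of the postsynaptic density (-0.55). The median of this list was -0.33, and -0.24 after the correction. The 4 CA2, 4 CA3 and 5 dentate granule cell genes had 0 calls each in edgeR, with 1 gene of each list at an unadjusted p under 0.05, and DESeq2 called 1 CA2 and 1 dentate granule cell gene. Their medians were -0.16, -0.17 and 0.01, and -0.04, 0.17 and 0.27 after the GC and length correction, which turned the sign for CA3. After that correction 2 of the 5 other CA1 genes and 1 of the 7 glutamatergic genes were called, against 2.64% of all genes. The summed level of the 5 CA1 genes was 1020 to 1100 CPM in WT VEH, 824 to 1110 CPM in WT VEH_HC, with 615 to 650 CPM for TAU VEH and 885 to 887 CPM for TAU MOL. That of the glutamatergic list was 19100 to 19200, 18000 to 21000, 13300 to 13800 and 13100 to 14600 CPM in the same order. The CA1 sum was thus higher in both TAU MOL than in both TAU VEH libraries, and the sums of the glutamatergic list overlapped between these groups. The sums of other lists were higher in both TAU MOL libraries as well, at 151 to 153 against 142 to 148 CPM for other CA1 genes, 115 to 118 against 98.9 to 101 CPM for neocortex, 107 to 115 against 96.6 to 103 CPM for subiculum and 737 to 818 against 643 to 675 CPM for interneuron genes. The CA3 sum was lower in both TAU MOL libraries, at 198 to 200 against 247 to 249 CPM. The median log2 fold change of the subiculum list in TAU MOL versus TAU VEH was 0.65, a value near none of its genes. Its 4 genes had 1.26, 1.11, 0.20 and -0.05, the first with as few as 34 counts in a library, and none was called in edgeR. In TAU MOL versus TAU VEH the median was 0.15 for the other CA1 genes, 0.04 for the glutamatergic list and -0.22 for CA3 genes, with no gene called in edgeR, and an unadjusted p under 0.05 for 2, 0 and 3 of their genes. DESeq2 called 1 of these, of the CA3 list, and also 1 subiculum and 2 choroid plexus genes. In the basal comparison no gene of these 5 lists was called in edgeR or DESeq2, 1 CA2 gene had an unadjusted p under 0.05, and the medians were 0.13, -0.11, -0.35, 0.01 and 0.00 for other CA1, glutamatergic, CA2, CA3 and dentate granule cell genes. Oligodendrocyte genes had a basal median of -0.547, with 4 of 5 at an unadjusted p under 0.05, thalamus genes -0.476, with 1 of 5, blood genes -0.516, with 2 of 3, and choroid plexus genes 0.715, with 6 of 10, and none of them was called in edgeR or DESeq2. Of the astrocyte genes, with a basal median of 0.0734, edgeR called none and DESeq2 called 1. Their basal sums were 1840 to 2160 CPM in THY-Tau22 and 1550 to 1660 CPM in WT.

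Markers of tissue outside the pyramidal layer moved between the groups as well. All 10 choroid plexus genes, Ttr, the thyroid hormone carrier of this tissue, among them (log2 fold change -3.21), were lower in the TAU VEH mice than in trained WT mice, and all 10 were higher in WT VEH than in WT VEH_HC. Their summed level was 2140 to 3060 CPM in WT VEH, 155 to 406 CPM in WT VEH_HC, 451 to 528 CPM for TAU VEH and 1040 to 1150 CPM for TAU MOL, and 585 to 699 CPM in basal WT and 689 to 1950 CPM in basal THY-Tau22. The WT VEH_HC libraries had lower choroid plexus sums than the TAU VEH libraries and higher levels of Wfs1, Fibcd1 and Mpped1. Astrocyte genes were higher for 2 of 5, Gfap, the glial filament protein (0.70), and Aqp4, a water channel (0.38), with summed levels of 1540 to 1680 CPM in TAU VEH and 1220 to 1300 CPM in WT VEH. Of neocortex genes 2 of 5 were lower, Fezf2 (-0.68) and Cux2 (-0.43), both transcription factors of cortical neurons, with sums of 98.9 to 101 CPM against 119 to 123 CPM. Of subiculum genes 1 of 4 was lower, the neuropeptide precursor Nts (-0.99), with sums of 96.6 to 103 CPM against 105 to 119 CPM. The thalamus list had 1 of 5 lower (Lef1), the interneuron list 1 of 5 (Pvalb) and the microglia list 1 of 5 (Tmem119), and the 5 oligodendrocyte, 4 endothelial and 3 blood genes had none called in edgeR, with 1 endothelial gene at an unadjusted p under 0.05 and called by DESeq2. After the GC and length correction, all 10 choroid plexus genes were still called in TAU VEH versus WT VEH. Of the astrocyte, neocortex, thalamus and interneuron lists 1 gene each was then called, and of the subiculum and microglia lists none. What part such shifts of tissue or cell types had in the levels of the CA1 genes was not tested.

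**Figure D4:**
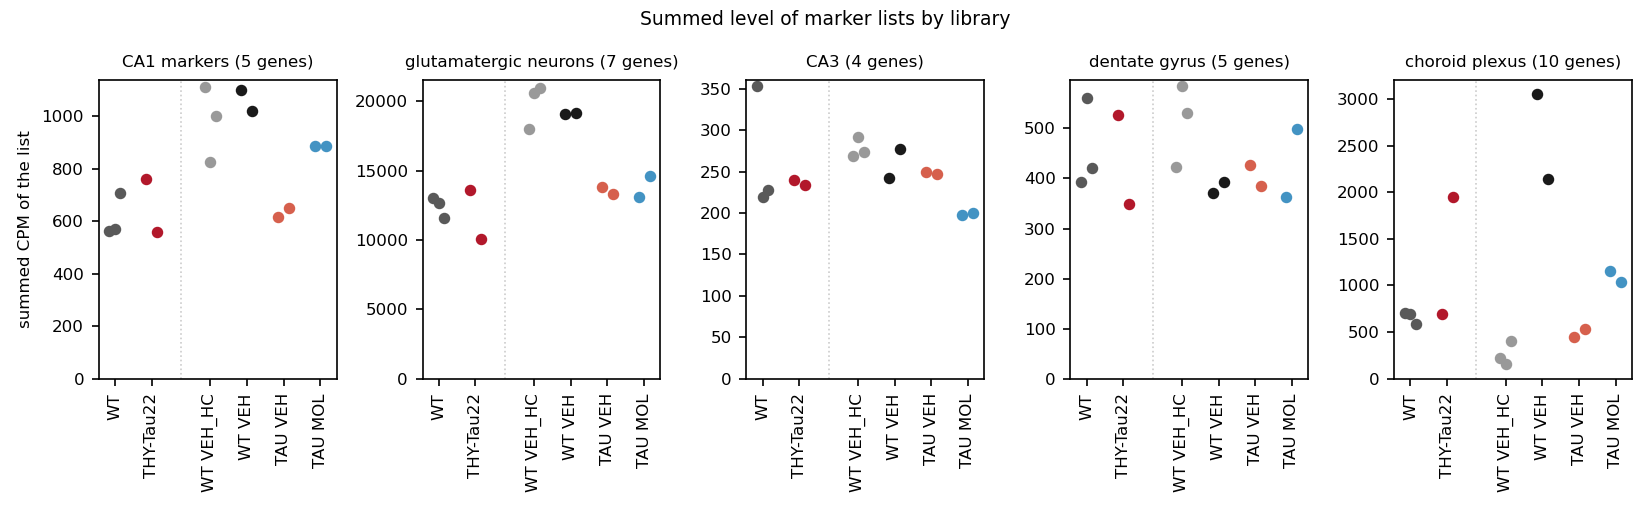
Summed CPM of 5 marker lists in each library on linear axes, with the basal experiment to the left and the learning experiment to the right of the dotted line, and 1 point per library. The 5 CA1 genes sum to 615 to 650 CPM in TAU VEH and 885 to 887 CPM in TAU MOL. The choroid plexus list peaks in WT VEH and is also higher in TAU MOL (1040 to 1150 CPM) than in TAU VEH (451 to 528 CPM). The CA3 list is lower in TAU MOL (198 to 200 CPM) than in TAU VEH (247 to 249 CPM). The glutamatergic and dentate gyrus lists of these groups overlap. The other CA1, neocortex, subiculum and interneuron lists, not plotted, were higher in TAU MOL as well.

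The 5 genes did not follow each other equally closely. Over the 14 libraries, with the mean of each experiment subtracted from log2 CPM, Fibcd1 and Mpped1 had a Pearson correlation of 0.849, and of 0.928 over the 9 learning libraries. Wfs1 had 0.673 with Fibcd1 and 0.613 with Mpped1. Man1a had 0.153 with Fibcd1, 0.363 with Mpped1 and 0.409 with Wfs1. Pou3f1 lay between, at 0.543 to 0.742 with the others. These libraries fall into groups and share depth and GC trends, so the correlations are given as a description of the points and with no test.

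Among 10964 genes whose mean reached 5 CPM in both experiments, those whose pattern over the 14 libraries was most like Wfs1 were Car7 (r = 0.893), Shb (0.893) and Smad7 (0.891). For Fibcd1 they were Chst8 (0.931), Ptpru (0.923) and Itpka (0.908), and for Mpped1 they included Ptpru (0.897) and Bcr (0.889). For Man1a they were Trpc4 (0.884), Pex5l (0.881) and Hivep1 (0.851), and for Pou3f1 BC030500 (0.877), Glb1 (0.824) and Pex5l (0.814). Ptpru was shared by Fibcd1 and Mpped1, and Pex5l by Man1a and Pou3f1. Per kilobase of exon, Wfs1, Mpped1 and Fibcd1 had similar levels in WT VEH, at 81.9, 81.1 and 77.5 CPM per kilobase, and Man1a had 5.53 CPM per kilobase.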

How the data were processed

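Gene expression was measured by RNA-seq of poly-A RNA in 14 libraries of mouse dorsal hippocampus, grouped by the sample labels and by the columns of each table, with 0 columns left without a sample. The authors aligned single-end reads of 50 bases to mm9 with TopHat 2.0.10 and bowtie 2.1.0 and used HTSeq 0.5.4p3 to count the uniquely aligned ones per Ensembl gene, and its overlap mode is not given in the sources used here. The library kit does not mark strand. The authors deposited these raw counts, which were used for all tests. A normalized signal, in which each library's counts were scaled by a single factor, was also deposited and was not used for tests. The learning table has 138 lines without values, which were left out.

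TMM-scaled counts of the genes kept by filterByExpr were tested by quasi-likelihood F tests in edgeR 4.0.16 under R 4.3.3, with Benjamini-Hochberg adjustment over all genes. Genes were called where the adjusted p was under 0.05 and the log2 fold change exceeded 0.2 in size. The 5 basal libraries, the 9 learning libraries and all 14 libraries were each fitted once, and all 5 genes passed the filter in each fit. DESeq2 1.42.0 was an alternative. Other alternatives were DESeq2's size factors, library size alone, no filter, the replicate number as a block, a loess correction (span 0.3) for GC content and length, no fold change limit, only the groups compared, and leaving out each library. The tests were first run on simulated counts. Gene positions came from the NCBIM37 (mm9) genome with a GENCODE annotation of an earlier Ensembl release than the authors used, and promoters from RefSeq (GRCm38.p6). The most alike genes were ranked by Pearson correlation of log2(CPM + 0.5). Python 3.11.15, pandas 2.3.3 and matplotlib 3.10.9 were used.

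The genes and lists were chosen with earlier results of these data known. Named genes are the 5 CA1 genes, the 3 genes most like each, and of each other list at most 2 called genes with the largest absolute change, beside Calb1, which was named after its value was seen, and 1 gene that this rule names is not reported here. The lists are other CA1, glutamatergic, CA2, CA3, dentate granule cell, thalamus, neocortex, subiculum, interneuron, choroid plexus, astrocyte, microglia, oligodendrocyte, endothelial and blood genes, and Thy1. Replicates of a group differed beyond counting noise. The p-values set each difference against the spread between mice within groups, 2 or 3 per group, estimated over all groups of a fit together. That estimate also draws on other genes. Where leaving out a library left 1 in a group, that group added nothing to the spread.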

Additional observations from a re-analysis of the deposited data

How the results depend on the processing

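Over the alternatives, 316 of 355 values kept their direction and side of the limit, 9 gained and 9 lost a call, and 21 changed sign. The number of the 5 genes called changed as follows, and except where the setting itself uses fewer libraries or another set of genes the cause was not tested. In TAU VEH versus WT VEH it was 1 with the GC and length correction in place of 3, and 2 to 3 with a library left out. In TAU MOL versus TAU VEH it was 1 with DESeq2, 2 without the low-count filter and 2 with only the 2 groups compared, in place of 0. In TAU MOL versus WT VEH it was 0 with library size alone, 0 with the GC correction and 0 to 0 with any library left out, in place of 1. In the test between experiments it was 1 with DESeq2, 1 without the filter, and 0 to 2 with a library left out, in place of 0.

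Values not past the limits that changed sign were, in the basal comparison, Wfs1 with the replicate block (0.0368) and with a library left out (-0.28 to 0.0244), and Fibcd1 (-0.43 to 0.51). In WT VEH versus WT VEH_HC they were Pou3f1 with DESeq2 (-0.00303), its size factors (-0.000894), no filter (-0.00397), the replicate block (-0.0611) and a library left out (-0.20 to 0.32), and, with a library left out, Wfs1 (-0.10 to 0.27) and Man1a (-0.0258 to 0.20). In TAU MOL versus WT VEH they were Wfs1 with library size alone (0.0254), the GC correction (0.0683) and a library left out (-0.27 to 0.12), Pou3f1 with the GC correction (0.0898), and Man1a with the GC correction (-0.069) and a library left out (-0.0217 to 0.19).

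Across all genes the counts of calls moved with most settings. Without the filter 125, 2686, 2872, 233, 1590 and 77 genes were called in the 5 comparisons and the test between experiments, in place of 4, 1413, 2423, 0, 947 and 22, and with the GC correction 9, 767, 444, 0, 31 and 22. With library size alone they were 4, 1712, 3598, 0, 1083 and 15. DESeq2 called 41, 1845, 2491, 54, 1315 and 118. With only the 2 groups fitted, the 4 learning comparisons gave 310, 3399, 60 and 1490. With a library left out they gave 73 to 2798, 915 to 1276, 0 to 11 and 2 to 4, the basal comparison 1 to 15, and the test between experiments 7 to 764. The samples were not treated as paired by replicate number, since the labels name no shared litter. Deviations of same-numbered libraries correlated at -0.148 to 0.3. In a group of 2 the deviations of the replicates are exact opposites, so this check cannot exclude a pairing. With the replicate block 37, 3000, 2794, 0, 1321 and 20 genes were called, and 0, 0, 3, 0, 1 and 0 of the 5 genes, as without it. Of the 3 genes most like a CA1 gene, 1 was kept for Wfs1 and 1 for Pou3f1 with Spearman's rank correlation, and 2 for each other gene. Depth limits Pou3f1, with at most 81 counts per library, and the other 4 genes are limited by the spread between 2 or 3 mice per group.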
